A study of Drosophila melanogaster with 34 samples.

Results

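CTCF binding in Drosophila S2 cells was described from the pair of peak lists titled CTCF200 and CTCF500, called CTCF 200 and CTCF 500 here. All their peaks on the 6 named arms (X, 4, and the left and right arms of 2 and 3) were taken, which gave 4879 peaks for CTCF 200 and 2615 for CTCF 500. These 7494 are among the 48081 regions that the 18 lists of the series hold on the same arms. The study mapped CTCF, Caudal, the ecdysone receptor EcR and 5 HDACs (deacetylases 1, 3, 4a, 6 and 11) by chromatin immunoprecipitation and sequencing in fly cells, embryos, larvae, prepupae and adults.

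S2 is an established cell line derived from Drosophila embryos. The labels name CTCF as the antibody of both ChIP samples, S2 as the cell line of both, and no treatment. Cells of both were fixed in the plate with 1.8% formaldehyde for 15 min, and each ChIP sample has an input of its own. Each list pools 2 ChIP libraries, and since the labels have 1 plate serving 2 immunoprecipitations, pooled libraries may share a plate. The labels do not say what the numbers 200 and 500 stand for. A peak list holds no expression values, so the cell line could not be checked against markers. The lists also give no read counts, so the depth behind a peak is unknown and peak width is the only size a peak has. Each list is 1 observation, so no test between lists or classes was possible. The 95% intervals given here cover counting error only and treat peaks as independent.

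CTCF is a DNA-binding protein with a row of zinc fingers that is conserved from flies to mammals. In flies it is 1 of several insulator proteins, which sit between enhancers and promoters or between chromatin domains, and it is best known there for the boundaries of the bithorax complex, the cluster of homeotic genes that patterns the posterior body. S2 cells have long been used to map such insulator proteins.

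CTCF peaks were narrower than HDAC regions and wider than EcR regions. Widths in CTCF 200 ran from 335 to 8471 bp with a median of 1014 bp (95% interval 995 to 1033), and 80% of its peaks lay between 652 and 2170 bp. Widths in CTCF 500 ran from 378 to 6283 bp with a median of 1238 bp (1220 to 1261), and 80% lay between 795 and 2283 bp. The shorter list thus had the wider typical peak, while the widest 10% began at similar widths in both. Median widths of the 10 HDAC lists, made from embryos of 0 to 12 h, ran from 1680 to 5825.5 bp, all above both CTCF lists. Of the 6 Caudal and EcR lists, 4 had lower medians than either CTCF list, with 973 bp for Caudal of adult females, 435 bp for both EcR lists and 235 bp for Caudal of larvae. CTCF 200 peaks covered 5.06% of the 120.1 Mb of arms and CTCF 500 peaks 3.08%.

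Peaks on the X were narrower than peaks on the large autosomal arms. In CTCF 200 the median was 855.5 bp (833 to 882) for the 1012 peaks on the X and 1063 bp (1039 to 1089) for the 3823 peaks on 2L, 2R, 3L and 3R, and the 4 autosomal medians, 1032 to 1079 bp, were all above that of the X. In CTCF 500 the medians were 1181 bp (1138 to 1225) and 1258 bp (1234 to 1275). The X peaks were therefore 0.805 times as wide in CTCF 200 and 0.939 times as wide in CTCF 500. The same ratio was below 1 in 12 of the 16 lists of other proteins, with a range of 0.574 to 1.03 and a median of 0.856, so narrower X peaks were not particular to CTCF. On chromosome 4 the 44 peaks of CTCF 200 had a median of 787.5 bp (713 to 1120) and the 25 of CTCF 500 one of 991 bp (814 to 1349), intervals too broad to place them against the X.

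Peaks found in both lists were wider than those found in a single list. A peak was counted as in both when it overlapped a peak of the other list by 1 bp or more, which a wide peak does more easily, so width and class are not independent. In CTCF 200 the 2430 peaks in both lists had a median width of 1214.5 bp (1184 to 1243) and the 2449 found there alone one of 862 bp (840 to 879), a ratio of 1.41. In CTCF 500 the 2401 peaks in both had 1262 bp (1240 to 1280) and the 214 found there alone 961 bp (921 to 1014), a ratio of 1.31. The order was the same on the X, where CTCF 200 peaks in both had 1037.5 bp and the others 745.5 bp, and on the autosomal arms, with 1242 and 911.5 bp. With a shared peak defined by midpoints within 250 bp, CTCF 200 kept the order at 1102 against 959 bp, but CTCF 500 turned it, with 1211 bp for peaks in both and 1359 bp for the rest.

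**Figure D1:**
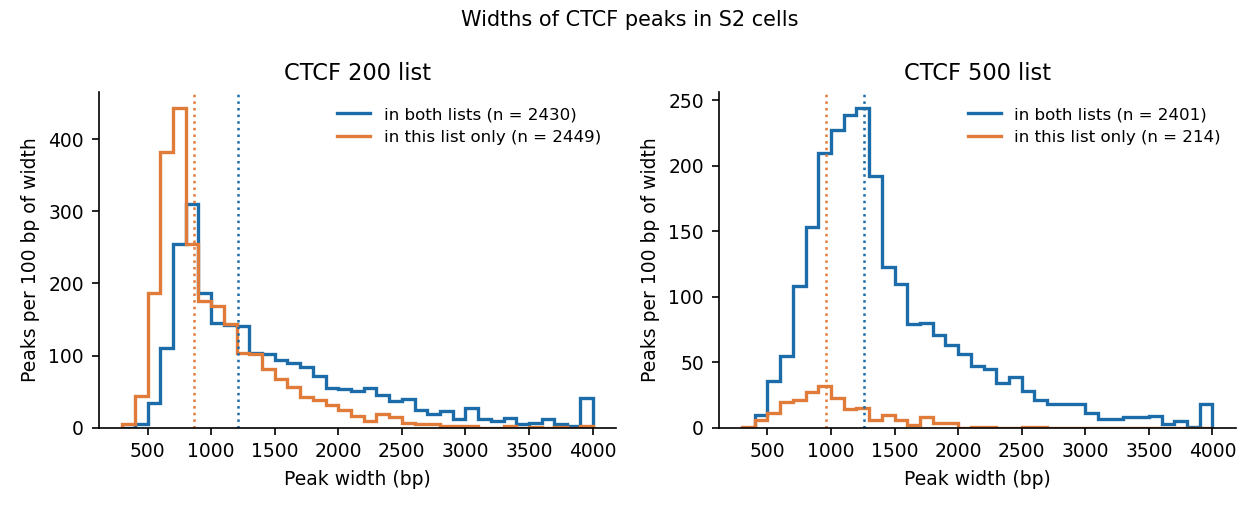
Number of peaks (vertical axis) per 100 bp of peak width in bp (horizontal axis) for CTCF 200 (left) and CTCF 500 (right), with lines for peaks in both lists and in the named list only, dotted lines at their medians, and all peaks of 3900 bp or wider in the last step. In CTCF 200 the peaks of that list only pile up below 900 bp, to the left of those in both lists; the vertical scales of the panels differ.

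The share of peaks in both lists rose with width, but not evenly. CTCF 200 was divided by width into 10 groups of equal size, and 17.6% (14.5 to 21.3) of the narrowest group (335 to 652 bp) and 83.4% (79.8 to 86.4) of the widest (2170 bp and above) were also in CTCF 500. Between these ends the share climbed to 54.9% (50.5 to 59.3) in group 4 (799 to 881 bp), was 45.6% (41.2 to 50.03) in group 6 (1014 to 1175 bp), and was 57.0% in group 8. Group 6 lay below its neighbours on the X, with 64.2% in group 5, 47.1% in group 6 and 63.8% in group 7, and on the autosomal arms, with 49.6%, 45.1% and 52.8%. The intervals of neighbouring groups overlap on both, which by itself does not decide whether the dip exceeds counting error. Over all arms the interval of group 6 overlaps that of group 5 (48.0 to 56.9) but not that of group 7 (50.5 to 59.3). No interval of a difference between groups was computed. In CTCF 500 the share was 77.9% (72.5 to 82.5) in the narrowest group and 98.9% (96.7 to 99.6) in the widest. Even the narrowest CTCF 500 peaks thus recurred at a share that in CTCF 200 only the widest group reached. The lists differ in length, however, with 4879 peaks in CTCF 200 and 2615 in CTCF 500. Most overlaps, 2215 of 2488, joined a single peak of each list. The longer list as a whole therefore could not reach a share as high as the shorter list could. This contrast between the lists does not show that CTCF 500 peaks are more reproducible.

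**Figure D2:**
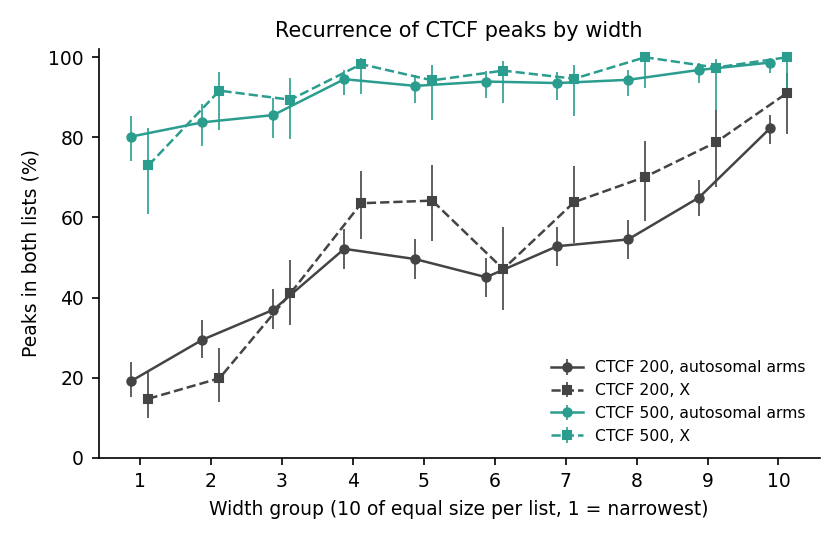
Share of peaks in both lists in percent (vertical axis) by width group, 10 of equal size per list (horizontal axis, 1 is the narrowest), for the large autosomal arms (circles, solid lines) and the X (squares, dashed lines), with 95% Wilson intervals as bars. CTCF 200 rises from under 20% to over 80% with a dip at group 6 on both, while CTCF 500 stays above 70% throughout.

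Where a single CTCF 200 peak met a single CTCF 500 peak, both lists drew the site in nearly the same place. Of 2488 overlapping pairs, 2215 were such one-to-one pairs, and their median widths were 1210 bp in CTCF 200 and 1247 bp in CTCF 500. The median ratio of CTCF 500 to CTCF 200 width was 1.03 (1.02 to 1.05), with the middle 50% of pairs between 0.848 and 1.25 and extremes of 0.265 and 3.12. Midpoints differed by a median of 111 bp and by at most 376 bp in 90% of pairs, and the signed median of -2 bp shows no shift of either list along the arm. In 22.9% of pairs the CTCF 500 peak lay inside the CTCF 200 peak, in 30.2% the reverse held, in 46.9% they overlapped in part, and no pair had the same start and end. Widths of paired peaks had a Pearson r of 0.74 on the log scale and a Spearman rho of 0.72 over the 2215 pairs, a description only, since both values of a pair come from the same site.

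The paired sites were drawn differently on the X. There the 466 pairs had a median width of 1029.5 bp in CTCF 200 and 1195 bp in CTCF 500, a median ratio of 1.08 (1.06 to 1.12), against 1.02 (0.997 to 1.04) for the 1728 autosomal pairs. The CTCF 500 peak was the wider in 64.2% of X pairs and in 52.1% of autosomal pairs. Midpoints lay closer together on the X, with a median difference of 89 bp against 116 bp. The narrower X peaks of CTCF 200 thus included sites that CTCF 500 drew at close to their autosomal width. Over all arms the ratio also went with CTCF 200 width. It fell from 1.26 in the narrowest of 5 equal groups of pairs to 0.836 in the widest. Grouped by CTCF 500 width instead, it was 0.971 in the narrowest group, 1.11 in the next and 1.01 in the widest, without such a fall. Either grouping uses a width that enters the ratio, so the fall does not show that narrow sites were drawn wider in CTCF 500. The median midpoint difference was 78 bp in the narrowest group by CTCF 200 width and 202 bp in the widest. Whether X pairs differ from autosomal pairs of like width was not tested.

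Some sites were split in either list and whole in the other. In CTCF 200, 58 peaks, with a median width of 2635 bp, each overlapped 2 peaks of CTCF 500. In CTCF 500, 81 peaks with a median width of 1957 bp overlapped 2 peaks of CTCF 200, and a further 3 overlapped 3. Taken by base pairs, the lists shared 2967826 bp, which is 48.8% of the CTCF 200 and 80.3% of the CTCF 500 coverage.

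The widest sites in both lists, in the order of the mean of their width ranks in the 2 lists, are named here by their release 5 coordinates. The first, at 3L 16399816 to 16406920 in CTCF 200 (7105 bp), ranked 2 by width in CTCF 200 and 1 in CTCF 500, had no neighbour in that list within 24638 bp and overlapped regions in 11 of the 16 lists of other proteins. The next was at 2L 3468863 to 3475176 (6314 bp), drawn as 4393 bp in CTCF 500, and overlapped both HDAC3 lists and 2 Caudal lists. The site at 3L 8710090 to 8716575 (6486 bp, 4251 bp in CTCF 500) overlapped 8 HDAC lists and no Caudal or EcR list. The site at 2R 11261412 to 11266798 (5387 bp) had another CTCF 200 peak only 168 bp away, and 7 other lists overlapped it. The site at 3L 709548 to 714473 (4926 bp, 4418 bp in CTCF 500) overlapped 6 HDAC lists but neither HDAC3 list. Isolated and crowded sites were thus both among the widest.

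Wide peaks of a single list were fewer and less wide. The widest of CTCF 200 alone lay at 2L 5978056 to 5983551 (5496 bp), 2165 bp from the nearest CTCF 500 peak, followed by 3R 24423176 to 24427829 (4654 bp) and 3L 222879 to 226617 (3739 bp). The widest of CTCF 500 alone were at 3L 1638123 to 1640740 (2618 bp), 3R 911831 to 914376 (2546 bp) and 3R 16936900 to 16939185 (2286 bp). All 6 of these overlapped both HDAC3 lists, which was common among wide peaks of a single list. In the widest of 5 width groups, midpoints of such CTCF 200 peaks lay in the HDAC3 lists in 66.5% and 70.7% of cases. For the 11 such peaks of CTCF 500 the shares were 72.7% and 63.6%. Among one-to-one pairs the lowest ratio was at X 21856627 to 21858799, 2173 bp in CTCF 200 and 576 bp in CTCF 500, and the highest at 2L 12454798 to 12455543, 746 bp in CTCF 200 and 2327 bp in CTCF 500.

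Neighbouring CTCF peaks were typically more than 10 kb apart, with a long tail on both sides. The space from the end of a peak to the start of the next in CTCF 200 had a median of 12749 bp (12029 to 13411), a mean of 23389 bp and a coefficient of variation (SD over mean) of 1.36. In CTCF 500 the median was 25841 bp (24299 to 28065), the mean 44094 bp and the coefficient 1.197. Evenly spaced sites would give a coefficient near 0, so sites in both lists were not evenly spaced. Random placement would also give uneven spaces, and no comparison with it was made. Over the large arms the median differed by less than it did between lists. In CTCF 200 it was lowest on X and 2R, 10766 and 10813 bp, lay between 13916 and 14084 bp on 2L, 3L and 3R, and was 21173 bp (7195 to 34765) on chromosome 4. In CTCF 500 it was lowest on X, 23641.5 bp, and 2R, 24957 bp, and the arms other than 4 ran up to 28065 bp, with intervals that overlap. When CTCF 200 was cut to its widest 2615 peaks, its median spacing was 22332 bp, against 25841 bp in CTCF 500.

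**Figure D3:**
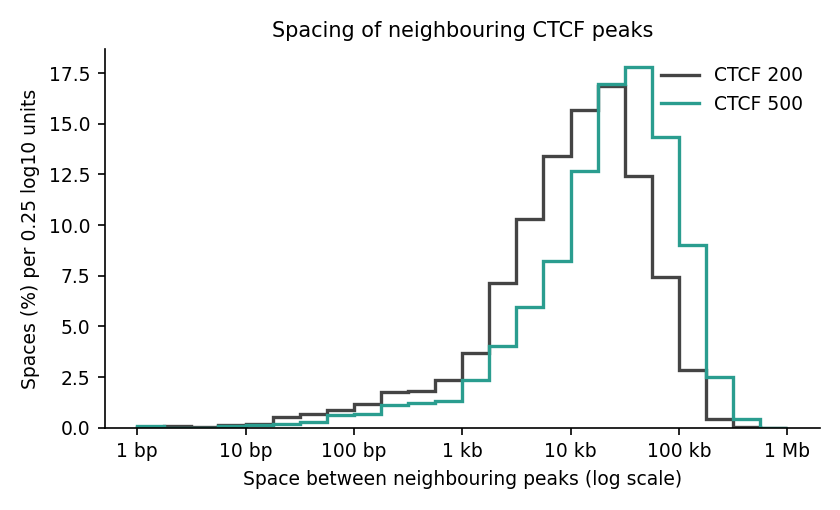
Share of spaces between neighbouring peaks in percent (vertical axis) per 0.25 log10 units of their length (horizontal axis, log scale) for CTCF 200 and CTCF 500. Both lists have a single broad peak between 10 and 100 kb, with CTCF 500 shifted to longer spaces, and a tail below 1 kb.

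The spacing of both lists had a tail of closely spaced peaks. In CTCF 200, 339 spaces (6.96%, 6.28 to 7.71) were under 500 bp and 126 were under 100 bp. In CTCF 500, 112 spaces (4.29%, 3.58 to 5.14) were under 500 bp and 37 under 100 bp. Joining peaks closer than 500 bp left 4540 regions in CTCF 200, of which 298 held several peaks, up to 5, and 2503 in CTCF 500, of which 103 held several, up to 4. A single CTCF 500 peak bridged 82 of the 339 short spaces of CTCF 200 (24.2%), and a single CTCF 200 peak bridged 53 of the 112 of CTCF 500 (47.3%). So a part of these close pairs in each list was drawn as 1 site in the other. No peaks overlapped within a list, and the smallest space was 1 bp in each.

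Recurrence in CTCF 200 was higher for peaks under 500 bp from a neighbour and for those at 20 to 50 kb than in between. Of its 637 peaks with a neighbour under 500 bp away, 59.2% (55.3 to 62.9) were in both lists. This share is raised by the definition of a shared peak. A single CTCF 500 peak bridged 82 of the 339 spaces under 500 bp, and such a peak puts the CTCF 200 peaks on both sides in both lists. The share without these peaks was not computed. The share was 43.6% (39.8 to 47.4) at 500 to 2000 bp, lay between 47.6% and 47.8% from 2 to 20 kb, and was 55.0% (51.0 to 58.9) at 20 to 50 kb. Beyond 50 kb it was 57.5% (48.6 to 66.0) of only 120 peaks, an interval that includes the 49.8% of the whole list. The isolated peaks beyond 50 kb had a median width of 864 bp, against 1091 bp for the peaks at 2 to 5 kb. In CTCF 500 the share stayed between 89.9% and 93.5% at every spacing. The distance to the nearest peak of the same list had a median of 5500 bp (4938 to 5785) for CTCF 200 peaks in both lists and 5311 bp (4946 to 5643) for the others. With classes by midpoints within 250 bp the medians were 6099 and 4886 bp, so this comparison depends on the definition of a shared peak. On the X in CTCF 500 they were 10335 bp (8435 to 12005) for the peaks in both and 5653 bp (3110 to 13416) for the 39 others, with intervals that overlap.

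Peaks of a single list mostly lay far from any peak of the other list. For the 2449 peaks of CTCF 200 alone, the nearest CTCF 500 peak was a median of 12836 bp away (11794 to 13723), and 117 of them (4.78%) missed one by under 500 bp. For the 214 peaks of CTCF 500 alone, the nearest CTCF 200 peak was a median of 6474.5 bp away (4506 to 8277), and 28 (13.1%) missed one by under 500 bp. Near misses thus account for few of the unshared peaks. Along the arms the classes were only loosely sorted: in CTCF 200 the next peak after a peak in both lists was of the same class in 53.8% of cases, and the next after a peak of that list alone in 54.2%. The classes make up 49.8% and 50.2% of the list. The first value includes neighbours put in the same class by a single CTCF 500 peak that bridged the space between them, as in 82 spaces under 500 bp.

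CTCF peaks were found on every arm at similar density, highest on X and 2R. In CTCF 200 there were 45.2 peaks per Mb on X (42.7 to 47.7), 44.9 on 2R (42.4 to 47.5), 38.6 on 3L, 38.3 on 3R, 37.5 on 2L and 36.5 (27.2 to 49.0) on chromosome 4. In CTCF 500 there were 24.0 on X (22.2 to 25.8), 23.2 on 2R (21.4 to 25.1), 20.8 on 3R and 4, and 20.7 on 2L and 3L. The density on X over that on the large autosomal arms was 1.14 (1.06 to 1.22) in CTCF 200 and 1.13 (1.02 to 1.24) in CTCF 500. Among the wider 50% of each list it was 0.801 and 0.966. X peaks are narrower, so a common width cut removes more of them, and these values restate that difference in width. The share of peaks in both lists hardly differed by arm, at 47.7 to 51.3% of CTCF 200 and, leaving chromosome 4 aside with 21 of 25, 90.8 to 92.7% of CTCF 500.

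The arm ends next to the centromere were sparse on 4 of the 5 large arms. In the last 1 Mb before the centromere CTCF 200 had 13 peaks on 2L, 12 on 2R, 7 on 3L and 17 on X, but 38 on 3R. CTCF 500 had 5, 6, 2 and 10 there, and 22 on 3R. Over the 5 arms this came to 17.4 peaks per Mb in CTCF 200 and 9 in CTCF 500, against 41.6 and 22.1 per Mb between the ends. The 1 Mb at the telomere end held 44.2 and 27.8 per Mb, with 2L the most crowded at 61 and 37 peaks. Peaks at the telomere ends were in both lists in 58.4% of cases in CTCF 200, against 49.5% between the ends, but 3R went the other way (44.4% and 51.6%), and in CTCF 500 the shares were 92.1% and 91.9%.

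The longest stretches without a peak on 3L, X and 2R lay within these sparse ends. In CTCF 200 they were 3L 23574068 to 24021236 (447169 bp), X 21477331 to 21844746 (367416 bp) and 2R 76013 to 403740 (327728 bp), and none of the 3 held a CTCF 500 peak. In CTCF 500 they were 3L 23562988 to 24047100 (484113 bp), which held 2 CTCF 200 peaks, X 21477522 to 21857356 (379835 bp), which held 1, and 3R 23670385 to 24039612 (369228 bp), which held 9. The first 2 stretches were thus nearly the same in both lists, while the stretch on 3R, far from both ends of its arm, was not empty in CTCF 200.

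Within arms the density was uneven, though no comparison with random placement was made. Counted in 484 full bins of 250 kb, CTCF 200 had a mean of 10.1 peaks per bin, a range of 0 to 30 and a variance of 1.99 times the mean, and CTCF 500 a mean of 5.40, a range of 0 to 19 and a variance of 1.59 times the mean. The fullest bin in both was at 12.5 to 12.75 Mb of 3R, with 30 and 19 peaks. The next bins of CTCF 200 were at 16.5 to 16.75 Mb of X, with 27 and 14, and on 2R at 4.75 to 5 Mb, with 22 and 7, and at 5.75 to 6 Mb, with 22 and 10. Of the 22 CTCF 200 peaks, 6 were in both lists in the first of these bins on 2R and 10 in the second. The next bins of CTCF 500 were on 2L, at 20.25 to 20.5 Mb with 16 peaks against 19 in CTCF 200, and at 10 to 10.25 Mb with 15 against 17. Counts of both lists in the 484 bins had a Pearson r of 0.74, but within CTCF 200 the counts of peaks in both lists and of peaks of that list alone had an r of only 0.17 (Spearman rho 0.18). Both are descriptions over bins that share arms and, for the first, sites.

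**Figure D4:**
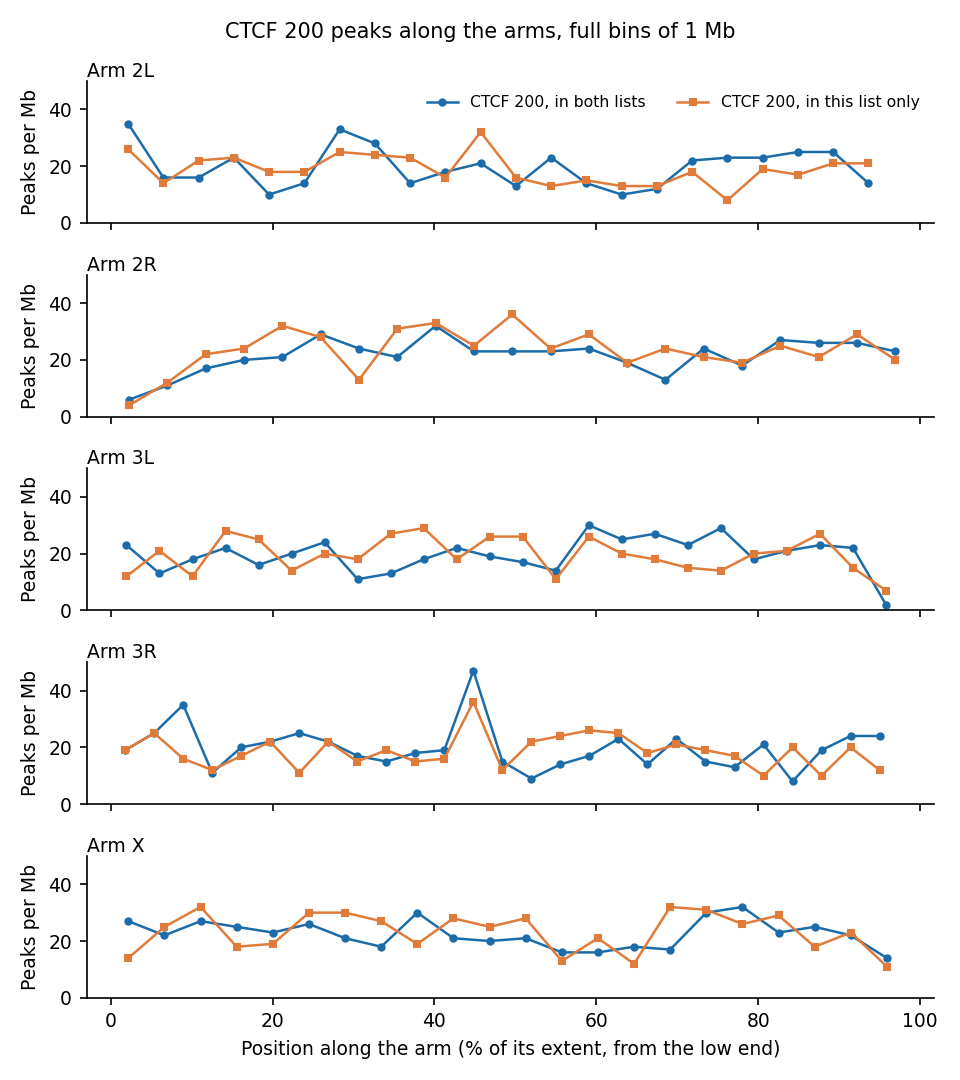
Number of CTCF 200 peaks per full bin of 1 Mb (vertical axis) along each large arm, as percent of its extent from the low end of its numbering (horizontal axis), for peaks in both lists (circles) and of CTCF 200 alone (squares). Counts fall at the high end of 3L and X and the low end of 2R, which are next to the centromere. The last bin of 2L, also next to the centromere, is not full and is not drawn. The tallest point of the peaks in both lists, 47, is near the middle of 3R, where those of CTCF 200 alone reach 36, as they also do on 2R.

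The lists of other proteins gave a readout of CTCF sites that did not enter the choice of classes. The HDAC lists come from E0-12h embryos of y; bw cn sp flies, share 1 input, and number 2 per protein, numbered here in the order of their titles. Caudal was mapped with its own antibody in E0-4h embryos, and through a GFP tag in E4-8h embryos, 3rdInstar-Larvae and adult females (titled 21d-Female). EcR was mapped through a GFP tag in white prepupae labelled 10-11 and 30-33. Flies with a GFP tag are y w, VK33, and the E0-4h embryos are of the same strain as those of the HDAC lists. None of these is S2 material, so an overlap places 2 proteins at the same position in different cells. HDAC3 and HDAC1 are deacetylases, which remove acetyl groups from histones and are known as parts of repressor complexes. CTCF 200 peaks of that list alone overlapped both HDAC3 lists more often than those in both CTCF lists: 46.5% (44.5 to 48.5) against 31.3% (29.5 to 33.2) for HDAC3 list 1, and 49.2% (47.2 to 51.2) against 32.4% (30.6 to 34.3) for list 2. The differences were 15.2 points (12.5 to 17.9) and 16.8 points (14.0 to 19.5). The HDAC3 lists cover 14.6% and 15.8% of the arms, so both classes lay in them more often than the arms as a whole.

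The same direction was seen for HDAC1, HDAC6 and HDAC11. For HDAC1 the shares were 41.3% against 34.0% in list 1 and 48.9% against 39.8% in list 2, and for HDAC6 list 2 50.9% against 41.6%. The differences were smaller for HDAC6 list 1, 3.25 points (0.807 to 5.68), and for the HDAC11 lists, 2.39 (0.790 to 3.99) and 1.59 points (0.194 to 2.99). HDAC4a list 1 went the other way, with 17.8% (16.3 to 19.3) of the peaks of CTCF 200 alone and 26.3% (24.6 to 28.1) of those in both, a difference of -8.58 points (-10.9 to -6.26). HDAC4a list 2 gave 29.3% and 27.2%, with an interval of the difference that includes 0 (-0.493 to 4.56), so the 2 lists of HDAC4a differ in this. Of CTCF 200 peaks, 20.7% of those of that list alone and 28.8% of those in both met none of the 10 HDAC lists.

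The HDAC3 difference was also present among peaks of like width. Peaks of CTCF 200 alone are narrower, which lowers their chance of an overlap, so the share whose midpoint lay inside an HDAC region was compared within 5 width groups of equal size. For HDAC3 list 1, in the narrowest group (335 to 727 bp) it was 21.7% for peaks of CTCF 200 alone and 15.2% for those in both, in the middle group 50.3% and 25.9%, and in the widest (1674 bp and above) 66.5% (60.4 to 72.2) and 36.5% (33.1 to 40.1). In list 2 the widest group gave 70.7% and 38.7%. The peaks of CTCF 200 alone were higher in 5 of 5 width groups and on 6 of 6 arms for both HDAC3 lists, both HDAC1 lists and HDAC6 list 2. On chromosome 4, with 44 peaks, the interval of the difference includes 0 for each of these lists. It also includes 0 for HDAC1 list 1 on the X (-0.126 to 11.6) and in the narrowest group (-1.63 to 10.2). For HDAC6 list 2 it includes 0 in the narrowest group (-4.84 to 8.31). For HDAC4a list 1 the peaks of CTCF 200 alone were lower on 6 of 6 arms but higher in 2 of 5 width groups, by at most 1.95 points, and 12.9 points lower in the widest.

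**Figure D5:**
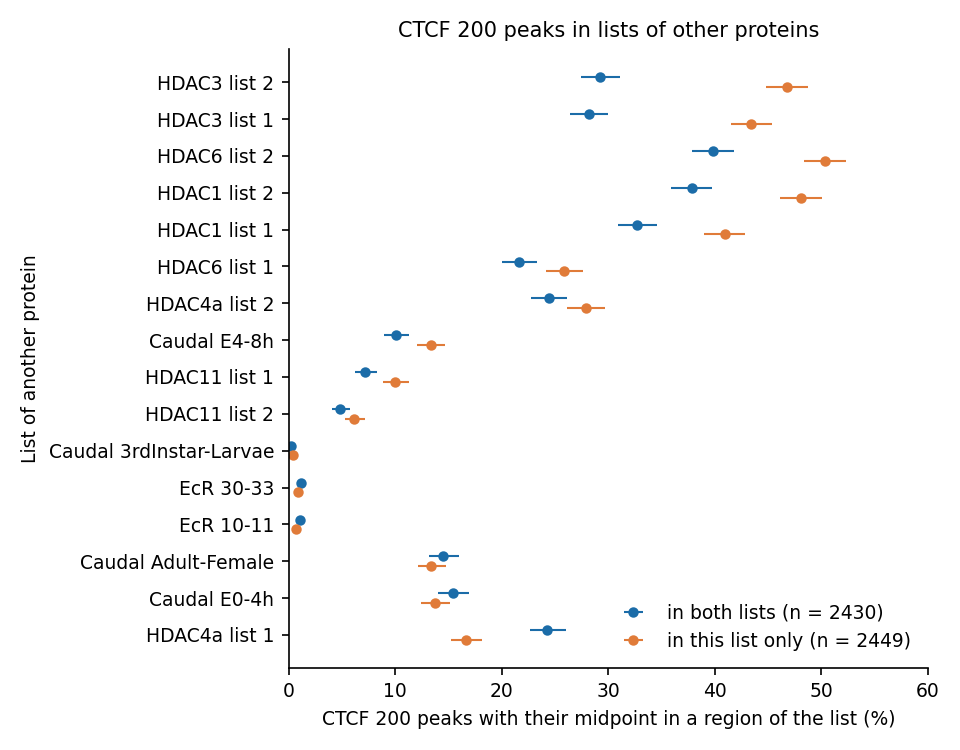
Share of CTCF 200 peaks whose midpoint lies in a region of each of the 16 lists of other proteins, in percent (horizontal axis), for peaks in both CTCF lists and of CTCF 200 alone, with 95% Wilson intervals as bars; lists are in order of the difference (vertical axis). The HDAC3 lists are at the top, with 43.4% and 46.8% of the peaks of CTCF 200 alone against 28.2% and 29.3% of those in both, and HDAC4a list 1 is at the bottom.

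Caudal is a homeodomain protein of the posterior embryo, and EcR is the receptor of the moulting hormone ecdysone. Both differed between the classes by fewer points than HDAC3 and HDAC1. The EcR shares were low, so their differences in points could only be small. Caudal of embryos of 0 to 4 h overlapped 14.4% of the peaks of CTCF 200 alone and 16.8% of those in both, and Caudal of embryos of 4 to 8 h 18.7% and 15.7%. Caudal of adult females overlapped 15.3% and 19.1%. The EcR list of 30-33, with 478 regions, met 1.55% of the peaks of CTCF 200 alone and 2.43% of those in both, a difference of -0.876 points (-1.68 to -0.0899). The list of 10-11, with 483 regions, met 1.27% and 2.35%, a difference of -1.08 points (-1.86 to -0.333). By midpoints inside a region, the interval of the difference was 1.47 to 5.07 for Caudal of 4 to 8 h. It included 0 for Caudal of 0 to 4 h (-3.69 to 0.269) and of adult females (-3.08 to 0.812). It also included 0 for EcR of 30-33 (-0.799 to 0.362) and of 10-11 (-0.933 to 0.160).

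The 214 peaks of CTCF 500 alone met most HDAC lists less often than the CTCF 500 peaks in both, in part the reverse of CTCF 200. They met HDAC4a list 1 in 14.0% (10.0 to 19.3) of cases against 26.4% (24.7 to 28.2). The differences were -11.0 points (-17.1 to -4.30) for HDAC6 list 2, -7.83 (-13.5 to -1.31) for HDAC1 list 1 and -8.13 (-14.3 to -1.35) for HDAC1 list 2, and these 3 turned in sign under other definitions of a shared peak or in the wider 50% of the lists. For the HDAC3 lists they gave 25.2% against 31.5% and 27.1% against 32.5%, with intervals of the difference that include 0 (-11.97 to 0.189 and -11.3 to 1.16).

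For the HDAC3 lists this direction differed by width. By midpoints within 5 width groups, the peaks of CTCF 500 alone were lower in the narrowest (378 to 932 bp). That group holds 95 of the 214 peaks. There list 1 gave 8.42% against 21.5%, a difference of -13.1 points (-18.9 to -4.90), and list 2 one of -13.5 (-19.4 to -5.35). In the other 4 groups the peaks of CTCF 500 alone were higher for both lists, as in CTCF 200. In the widest group list 1 gave 72.7% (43.4 to 90.3) of 11 peaks against 33.6%, a difference of 39.1 points (9.54 to 57.1). List 2 gave 63.6% against 35.7% there, and its interval of the difference includes 0 (-0.679 to 49.5), as do those of the 3 groups between for both lists. A change of sign with width was not particular to HDAC3. For HDAC6 list 2 the difference was -24.4 points in the narrowest group, 17.7 in group 4 and -5.13 in the widest. For HDAC1 list 1 it was -14.6 in the narrowest, 12.7 in group 3 and -20.2 in the widest. For these lists only the intervals of the narrowest group exclude 0.

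Caudal of embryos of 0 to 4 h met 6.07% (3.58 to 10.1) of the peaks of CTCF 500 alone against 16.8%, and Caudal of adult females 8.41% against 18.6%. Caudal of embryos of 4 to 8 h went the other way, at 22.4% (17.4 to 28.5) against 15.99%. The EcR and HDAC11 lists were also higher among the peaks of CTCF 500 alone, by 0.156 to 1.91 points, with intervals of the difference that include 0. None of the 10 HDAC lists was met by 41.6% (35.2 to 48.3) of them, against 28.9% of the CTCF 500 peaks in both.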

How the data were processed

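The authors deposited, for each ChIP sample, a list of regions with chromosome, start and end, without height, fold or p. Coordinates are those of BDGP release 5, per the submitters' processing notes. What aligner and peak caller were used is not given in the sources used here. The libraries of a sample were pooled before deposit, per the titles. Starts were read as counted from 0 and are printed from 1. The members, lists, alternatives and the rule for named regions were chosen with earlier results of these data known. Named regions are the 5 widest in both lists by mean width rank, the 3 widest of each list alone, the 3 longest empty stretches and 3 fullest bins per list, and the pairs of extreme width ratio. The extent of an arm ran from the lowest start to the highest end over all lists. Shares have 95% Wilson, medians binomial and differences Newcombe intervals, whose functions were tested on simulated data. Genes and sequences were not used here, since the gene table at hand is of another release. Python 3.11.15, NumPy 2.4.6, pandas 2.3.3 and SciPy 1.17.1 were used. No columns of other series were present.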

Additional observations from a re-analysis of the deposited data

Results flagged for a closer look

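Peaks outside the 6 arms entered no comparison. CTCF 200 had 78 such peaks (1.57% of 4957) and CTCF 500 had 82 (3.04% of 2697), of which 48 and 68 lay on the unplaced sequences U and Uextra. In each list 44 of them were also in the other, and their median widths were 559 and 574.5 bp. The inputs have no peak lists here, so these counts have no control level.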

How the results depend on the processing

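In all, 50 results were recomputed under 235 alternatives; joining peaks closer than 500 bp, midpoint classes for the overlap with other proteins, width groups and single sets of arms were chosen after seeing the data, and the causes of the changes were not tested. No paired analysis was possible because each list pools its libraries and no test was made. With midpoints within 250 bp, the shares in both lists were 37.3% and 69.6%, the CTCF 200 widths 1102 and 959 bp, the CTCF 500 widths 1211 and 1359 bp, and the nearest distances 6099 and 4886 bp in CTCF 200 and 13421 and 9033.5 bp in CTCF 500, each for both lists and a single list. In the wider 50%, the shares were 45.4% and 84.0%, the spacings 23760 and 51184 bp and the X ratios 0.801 and 0.966; over all sequences the CTCF 500 share was 90.7%. Spacing in CTCF 200 was 14008 bp between midpoints, 22332 bp at equal numbers and 14303.5 bp after joining (CTCF 500, 28180 bp). Variance over mean was 2.62 and 1.90 in bins of 500 kb and 3.98 and 2.57 in bins of 1 Mb. Differences in overlap for CTCF 200 (that list alone minus both) in the wider 50% were 27.3 and 29.7 points for the HDAC3 lists, 16.02 and 16.4 for HDAC1, 19.99 for HDAC6 list 2 and -12.1 for HDAC4a list 1. As means over 5 width groups they were 23.8 and 25.9 for HDAC3, 16.2 and 18.05 for HDAC1, 18.5 for HDAC6 list 2, -4.74 for HDAC4a list 1 and 0.267 for Caudal of 0 to 4 h, which reversed. By midpoint classes they were 10.5 and 14.2 for HDAC1, -5.54 for HDAC4a list 1, and 0.190 and 0.159 for EcR at 30 to 33 and 10 to 11 h, which reversed; on the X alone HDAC1 list 2 gave 5.59. For CTCF 500 the sign turned in the wider 50% for HDAC6 list 2 (9.71), HDAC1 list 1 (1.14) and list 2 (1.07), by midpoint classes for the same lists (4.03, 6.72 and 11.3) and Caudal of adult females (0.860), and on the X for Caudal of 4 to 8 h (-2.19), so directions for its 214 peaks depend on the definition of a shared peak.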
